A study of Arabidopsis thaliana with 5 samples.

Results

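The UMAMIT genes of Arabidopsis thaliana were examined for regions bound by BLUEJAY (BLJ) and JACKDAW (JKD), a pair of C2H2 zinc finger transcription factors known from the root's ground tissue, its cortex and endodermis. The 42 genes were all protein-coding genes on chromosomes 1 to 5 that carry the symbol UMAMIT and a number in the gene table used, out of 27444 protein-coding genes there. UMAMIT43-psi, which that table names a pseudogene but types as protein-coding, was not counted among them, and UMAMIT5 and UMAMIT18 stand in that table under the symbols WAT1 and SIAR1 and are described separately at the end. Chromatin immunoprecipitation and sequencing was done on whole roots of Columbia plants grown upright on plates of standard medium with sucrose. The study holds 2 libraries from plants with BLJ fused to yellow fluorescent protein, 2 from plants with JKD fused to it and 1 from wild-type plants without a fusion, all recovered with the same antibody against GFP. Per the labels BLJ-YFP is present in the ground tissue, and JKD-YFP in the ground tissue and the quiescent centre (the stem cell organizer). The sources used here do not give the plants' age, the promoter that drives each fusion, the number of lines or any mutant background. Per the sample sheets, replicate 1 of each factor shared a flow cell with the wild-type library, and replicate 2 of each factor was run on another.

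UMAMIT stands for "usually multiple acids move in and out transporters". These membrane proteins, also known as relatives of nodulin MtN21, let amino acids pass along their gradient, and several are known to export them from cells. In plants they pass amino acids from the phloem to sink tissues, and in the root some of them work in the vasculature, inside the endodermis and cortex that the ground tissue forms.

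The authors deposited 1 list of bound regions per factor, made from both of its replicates, with 24229 regions for BLJ and 21985 for JKD. Each region carries 2 density values, 1 per replicate, called here first-listed and second-listed because their order is not given, and an irreproducible discovery rate (IDR), where a low value stands for better agreement between replicates. Density was compared only within a list, as a percentile of the mean log2 of both values. Read depth is unknown and no regions of the wild-type library were analysed here, so no value has a wild-type background beside it. A region was taken as near a gene where at least 1 bp of it fell within the gene or within 1000 bp of either end. The family was chosen by its share of genes near regions and by the densities of those regions, so all counts and medians below are descriptions, with no test. Wilson intervals cover counting error only, and genes that share a region are not independent.

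Of the 42 UMAMIT genes, 28 had a BLJ region nearby (66.7%, 95% Wilson interval 51.6 to 79.0) and 24 had a JKD region (57.1%, 42.2 to 70.9). Among all protein-coding genes the shares were 80.8% for BLJ and 76.8% for JKD. UMAMIT genes were longer than most, with a median of 2552 bp against 2078 bp, and all genes near both factors had a median of 2274 bp against 1295 bp for those near neither. Weighted to the members' gene lengths in 10 bins, the shares of all genes were 87.3% and 83.2%, which corresponds to 36.7 and 34.9 of 42 genes. Regions of both factors lay near 20 members (47.6%, all genes 71.2%), BLJ regions alone near 8 (19.0%, all genes 9.57%), JKD regions alone near 4 (9.52%, all genes 5.60%) and no region near 10 (23.8%, all genes 13.6%). For genes of like length the share near no region was 8.32%. When only the gene body counted, 25 members were overlapped by a BLJ region (all genes 71.0%) and 21 by a JKD region (all genes 65.3%).

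**Figure D1:**
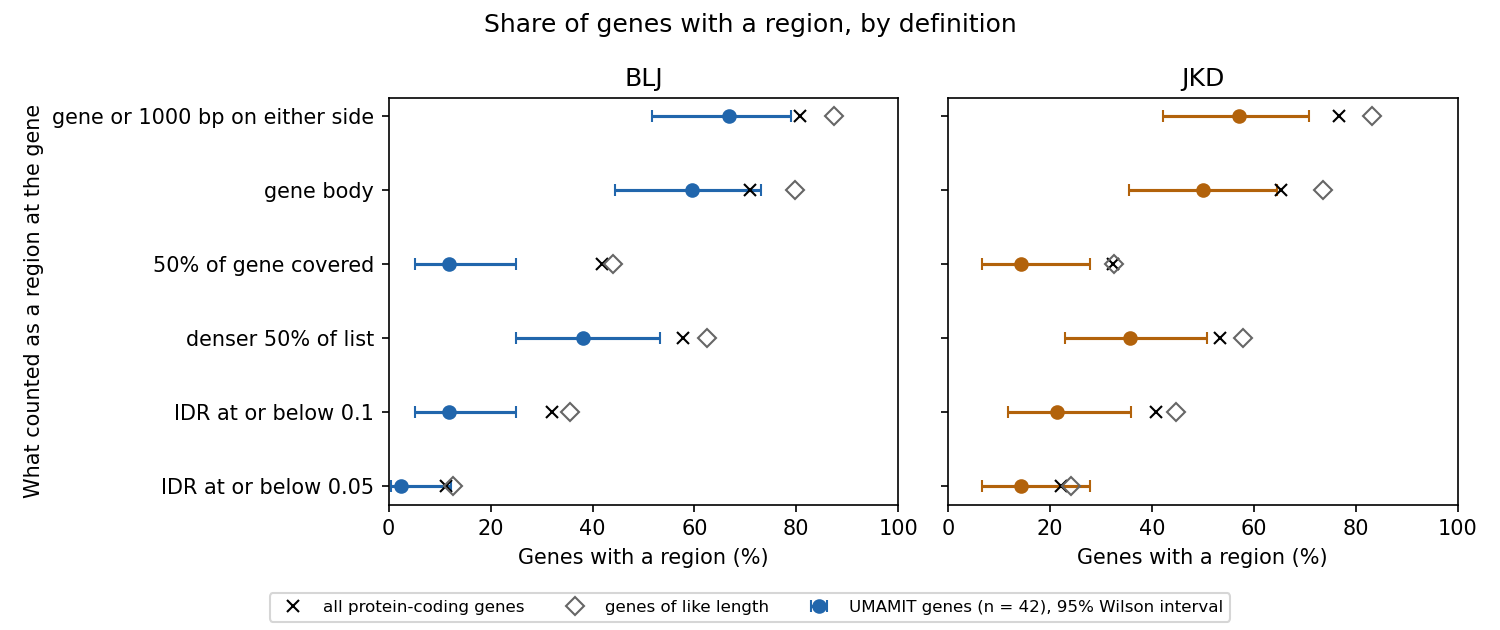
Share of genes with a BLJ (left) or JKD (right) region, in percent on the x axis, for 6 definitions of a region at the gene. Filled points with 95% Wilson intervals are the 42 UMAMIT genes, crosses all protein-coding genes and diamonds genes of like length; in each row the UMAMIT point lies left of both others, as at 66.7% against 80.8% and 87.3% for BLJ within 1000 bp.

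Wide cover of a whole gene was seen at few members. At least 50% of the gene's bases were covered by BLJ regions at 5 members (11.9%, all genes 41.8%, like length 44.0%) and by JKD regions at 6 members (14.3%, all genes 32.3%, like length 32.6%). The 5 for BLJ were UMAMIT10, UMAMIT6, UMAMIT13, UMAMIT33 and UMAMIT1, with 100%, 99.2%, 96.2%, 79.8% and 57.9% of the gene covered. The 6 for JKD were UMAMIT33, UMAMIT6, UMAMIT37, UMAMIT28, UMAMIT1 and UMAMIT13, with 100%, 77.0%, 57.3%, 53.8%, 52.4% and 50.9%. UMAMIT33, UMAMIT6, UMAMIT13 and UMAMIT1 were thus widely covered by both factors. At UMAMIT33 (AT4G28040) the regions on chromosome 4 (TAIR9, 13940737 to 13944767 for BLJ and 13940221 to 13944099 for JKD) also overlapped TET7, a tetraspanin gene, and AT4G28060. At UMAMIT10 (AT3G56620) a BLJ region of 3054 bp spanned the whole gene (densities 1.51 and 1.49, IDR 0.256), while the JKD region there was 663 bp wide and covered 31.0%. The median cover of the gene plus 1000 bp on either side was 16.4% for BLJ and 8.02% for JKD over all 42 members, those with no region included, where all genes had 34.2% and 25.7%. Over the 28 members near a BLJ region it was 24.5% (binomial interval of the median 18 to 42.9), against 42.9% over all genes near one. Over the 24 members near a JKD region it was 23.8% (13.4 to 32.9), against 36.0%.

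**Figure D2:**
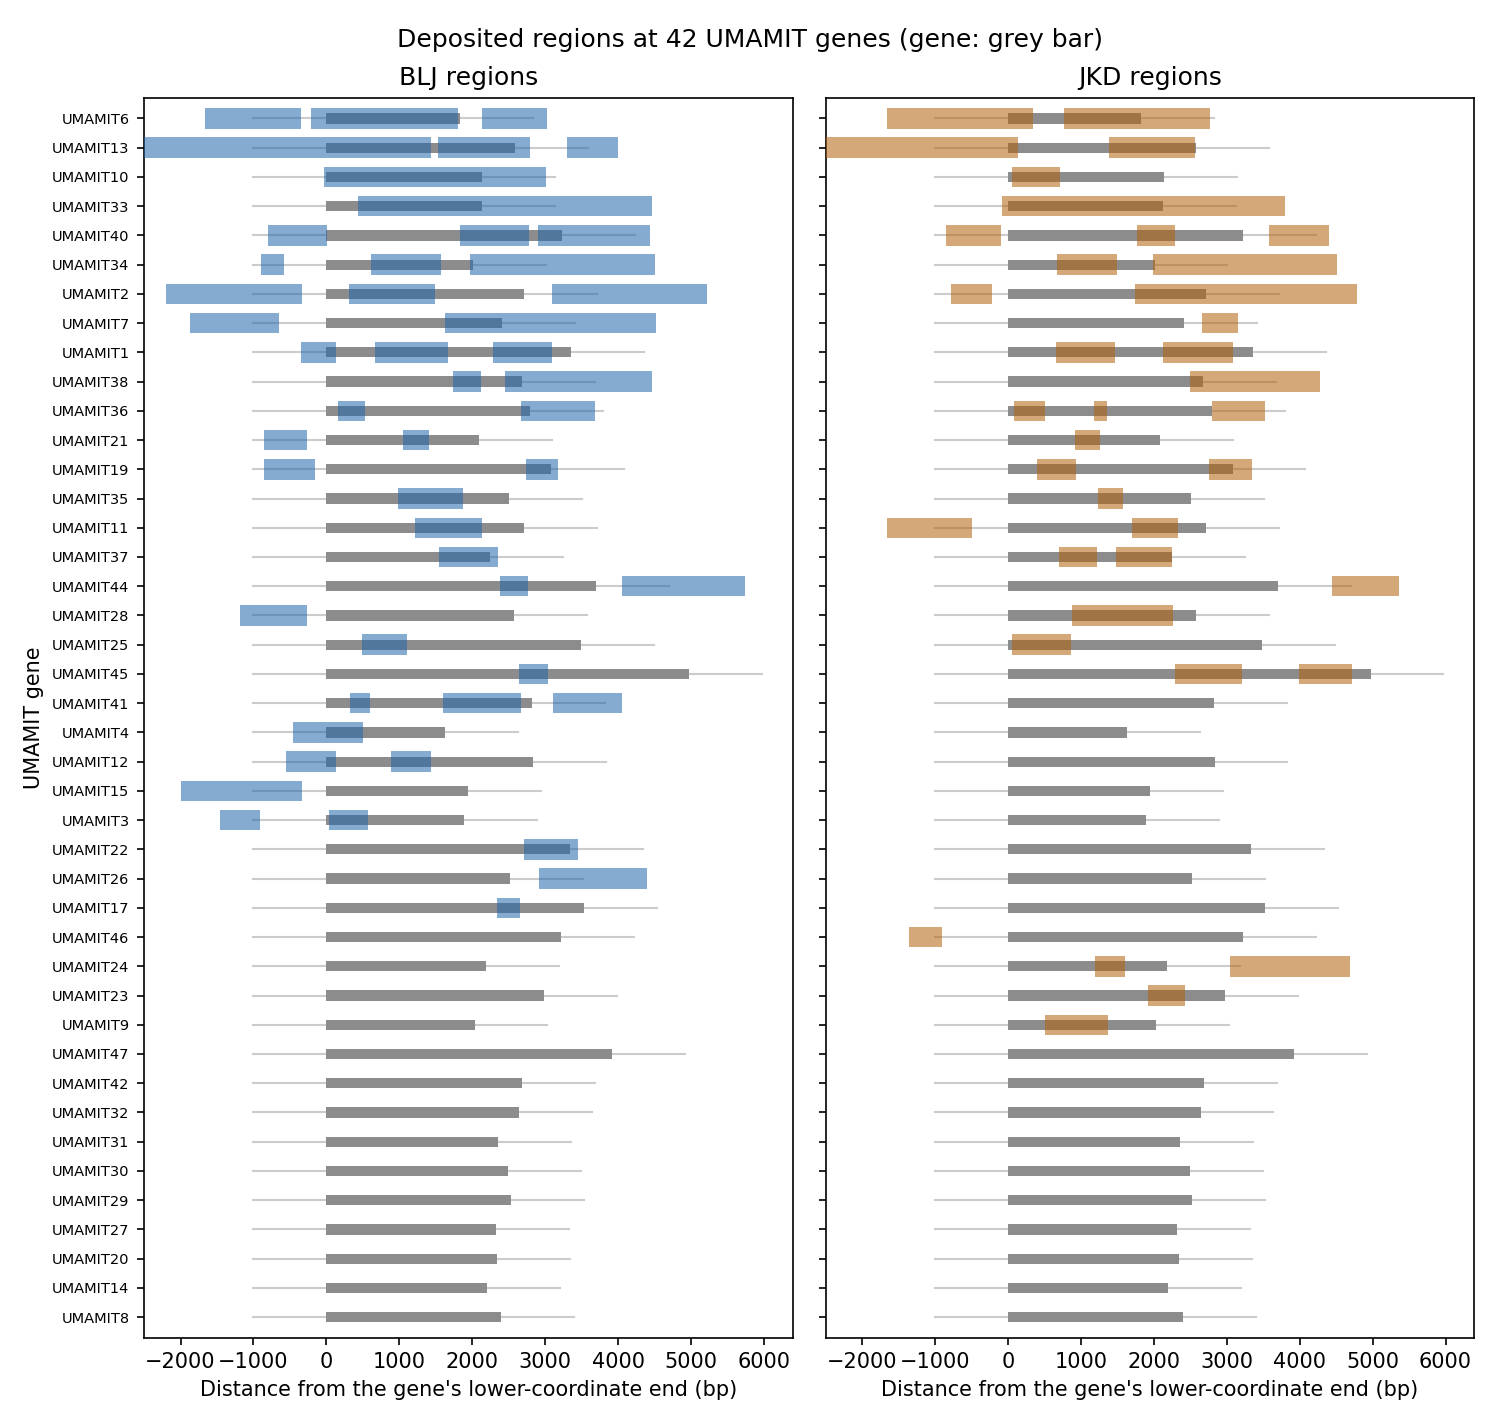
Deposited BLJ (left, blue) and JKD (right, orange) regions at each UMAMIT gene, with distance from the end of the gene at the lower coordinate in bp on the x axis. Grey bars are genes, thin lines the 1000 bp on either side, and regions are drawn up to 2500 bp from the gene; the 20 genes at the top have regions of both factors, and the 10 at the bottom have none.

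Members with known transport roles were UMAMIT11, UMAMIT14, UMAMIT24, UMAMIT25, UMAMIT28 and UMAMIT29, beside WAT1 and SIAR1, which are described further on, and they differed among themselves. UMAMIT14 (AT2G39510), an exporter that takes part in unloading the phloem of the root, had no region of either factor, and its nearest BLJ and JKD regions lay 1695 and 2003 bp away. UMAMIT29 (AT4G01430), known from seed filling, had none either, at 3401 and 6141 bp. UMAMIT11 (AT2G40900), known from amino acid export in developing seeds, had a BLJ region inside it on chromosome 2 (17064320 to 17065227, densities 1.48 and 1.16, density percentile 8.70) and a JKD region (17064805 to 17065430, densities 1.07 and 1.40, percentile 30.5). UMAMIT25 (AT1G09380), an exporter of the seed endosperm, was overlapped by a BLJ region (chromosome 1, 3026548 to 3027173, densities 1.46 and 1.30, percentile 22.5) and a JKD region (3026120 to 3026924, densities 1.02 and 1.38, percentile 17.3). UMAMIT24 (AT1G25270), also known from seeds, had JKD regions alone. UMAMIT28 (AT1G01070), which exports amino acids to the developing seed, had a denser JKD region than these. A JKD region of 1386 bp lay inside the gene on chromosome 1 (39327 to 40712, densities 1.18 and 1.65, IDR 0.0329, percentile 79.7). The BLJ region near UMAMIT28 (37259 to 38175, densities 1.37 and 1.27, percentile 10.4) lay 269 bp outside the gene, over LHY, a gene of the circadian clock. UMAMIT28 was the 1 member near both factors whose BLJ and JKD regions did not overlap. At the other 19 they overlapped by at least 1 bp. The share of such overlaps over all genes near both factors was not computed, so this count marks no trait of the family.

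The densest regions in the family were at UMAMIT34 in both lists, but they hardly touched the gene. On chromosome 4 a BLJ region of 4762 bp (14878872 to 14883633, densities 1.82 and 2.64, IDR 0.0498, percentile 98.8) and a JKD region of 5150 bp (14878899 to 14884048, densities 1.38 and 2.74, IDR 0.00241, percentile 99.5) overlapped 43 and 16 bp of UMAMIT34 (AT4G30420). Both spread over its neighbours TET9, a tetraspanin gene, and GAE1, which encodes an epimerase that supplies a pectin precursor. Further regions inside UMAMIT34 were weaker, with densities of 1.79 and 1.13 for BLJ (percentile 31.0) and 1.01 and 1.62 for JKD (percentile 52.0). UMAMIT35 (AT1G60050) followed in the BLJ list with a region within the gene on chromosome 1 (22122359 to 22123253, densities 2.32 and 1.41, IDR 0.148, percentile 91.9), where the JKD region had a percentile of 46.8. UMAMIT19 (AT1G21890) came next to UMAMIT34 in the JKD list. Its JKD region reached across the end of the gene at the higher coordinate (chromosome 1, 7685336 to 7685931, densities 1.23 and 2.12, IDR 0.0079, percentile 96.6), and the BLJ region there (7685322 to 7685763, densities 1.67 and 1.71, IDR 0.193) had a percentile of 83.6. UMAMIT19 was thus high for both factors and UMAMIT35 for BLJ, while the high values at UMAMIT34 belonged to regions that lay mostly over TET9 and GAE1.

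The next in density were UMAMIT6, UMAMIT13 and UMAMIT44. Near UMAMIT6 (AT3G53210) the densest BLJ region (chromosome 3, 19718417 to 19719727, densities 1.73 and 1.65, percentile 84.1) lay 350 bp outside the gene, over MYB27, a MYB gene, while the region over UMAMIT6 itself had densities of 1.59 and 1.40. At UMAMIT13 (AT2G37450) the BLJ region (chromosome 2, 15724011 to 15725272, densities 1.58 and 1.78, percentile 82.6) and the JKD region (15723865 to 15725038, densities 1.28 and 1.48, percentile 76.8) overlapped the gene. Near UMAMIT44 (AT3G28130) the JKD region (chromosome 3, 10469708 to 10470627, densities 1.05 and 1.89, percentile 81.8) lay 750 bp away, over AT3G28140. Several of the higher values in the family therefore belong to regions that also cover, or cover only, a neighbouring gene. Of the 25 members overlapped by a BLJ region, 21 were overlapped by a region that touched no other protein-coding gene, and for JKD these were 17 of 21. The same shares over all genes were not computed, so these counts describe the members alone and mark no trait of the family.

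The median IDR of the regions near members was 0.159 for BLJ (whole list 0.157) and 0.157 for JKD (whole list 0.141). Regions at or below 0.05 made up 2.08% of the BLJ regions near members (whole list 8.21%) and 16.2% of the JKD regions (whole list 17.7%). At or below 0.05 the BLJ list had a region near UMAMIT34 alone, the wide region over TET9 and GAE1 (1 of 42, 2.38%, all genes 11.2%). The JKD list had regions at or below 0.05 near 6 members (14.3%, all genes 22.2%), namely UMAMIT34, UMAMIT19, UMAMIT45, UMAMIT28, UMAMIT1 and UMAMIT6. At UMAMIT45 (AT3G28100), the longest member with 4972 bp, that region lay inside the gene (chromosome 3, 10460020 to 10460751, densities 1.09 and 1.43, IDR 0.0135, percentile 39.7). UMAMIT1 (AT5G45370) had it inside the gene on chromosome 5 (18389221 to 18390177, densities 1.25 and 1.5, IDR 0.0457, percentile 75.2). UMAMIT6 had it across the end of the gene (chromosome 3, 19720847 to 19722845, densities 1.15 and 1.43, IDR 0.0483, percentile 51.8). That region overlapped 1057 bp of UMAMIT6 and also its neighbour AT3G53220. At that limit UMAMIT34 was the 1 member near both factors (all genes 3.78%), and 36 members were near neither (all genes 70.4%). At a limit of 0.1 the counts were 5 for BLJ (all genes 32.1%), 9 for JKD (all genes 40.8%), 4 for both (all genes 17.5%) and 32 for neither (all genes 44.5%).

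Density was compared over the strongest region of each gene. The median percentile was 53.5 over the 28 members near a BLJ region (binomial interval of the median 33.8 to 72.8), and all 22170 genes near a BLJ region had a median of 68.5. For JKD it was 59.8 over 24 members (40.7 to 70.0), against 67.4 over 21082 genes. A percentile above 90 was reached by 2 members in each list, UMAMIT34 and UMAMIT35 for BLJ and UMAMIT34 and UMAMIT19 for JKD (7.14% and 8.33% of members near a region, against 17.0% and 17.1% of all such genes). Below a percentile of 50 were 12 members for BLJ (42.9%, all such genes 28.6%) and 9 for JKD (37.5%, all such genes 30.6%). Within the denser 50% of each list, 16 members were near a BLJ region (all genes 57.7%), 15 near a JKD region (all genes 53.3%), 10 near both (all genes 42.2%) and 21 near neither (all genes 31.3%). Over the 48 distinct BLJ regions near a member the first-listed value ranged from 1.31 to 2.32 (median 1.52, whole list 1.60) and the second-listed value from 1.13 to 2.64 (median 1.28, whole list 1.38). Over the 37 distinct JKD regions the ranges were 0.976 to 1.38 (median 1.08, whole list 1.09) and 1.21 to 2.74 (median 1.44, whole list 1.49). The regions were also somewhat narrower than the lists as a whole, with median widths of 933 bp for BLJ (whole list 1015 bp) and 805 bp for JKD (whole list 906 bp). The 2 values of a region were only loosely related, with a Spearman correlation across regions of 0.0691 for BLJ and 0.172 for JKD near members and of 0.248 and 0.407 in the whole lists.

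**Figure D3:**
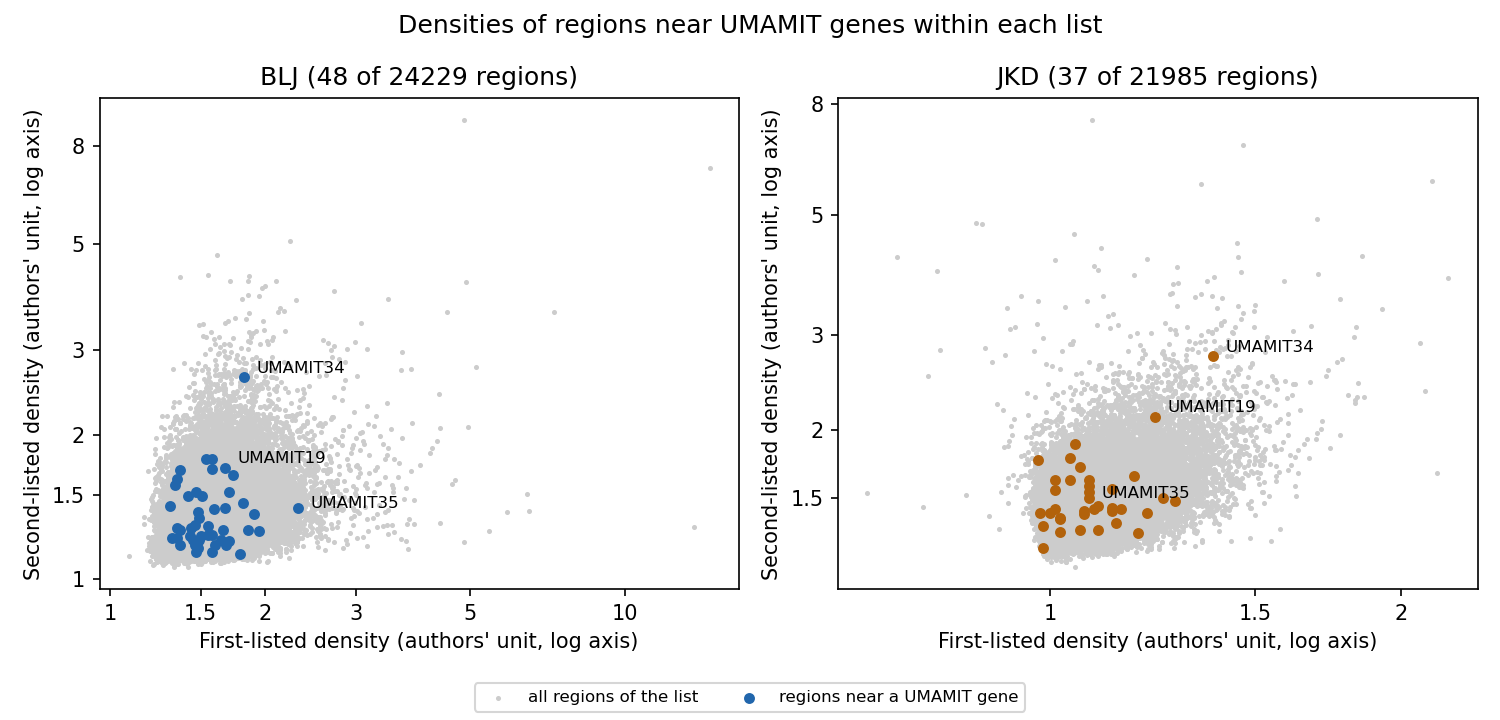
First-listed against second-listed density of each region, on log axes, in the BLJ list (left) and the JKD list (right). Grey points are all regions and coloured points those near a UMAMIT gene (48 and 37). The second-listed median near members was 1.28 for BLJ and 1.44 for JKD, and the highest coloured point in both panels is UMAMIT34, at 2.64 and 2.74.

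The 8 members near BLJ regions alone differed in where the region lay. UMAMIT3 (AT3G45870; chromosome 3, 16867068 to 16867602, densities 1.68 and 1.18), UMAMIT17 (AT4G08300; chromosome 4, 5247205 to 5247516, densities 1.49 and 1.21) and UMAMIT22 (AT1G43650; chromosome 1, 16446298 to 16447039, densities 1.95 and 1.26) were overlapped by regions that touched no other coding gene. UMAMIT12 (AT2G37460) had 2 such regions, the denser at 15725784 to 15726473 on chromosome 2 with 1.81 and 1.44. UMAMIT41 (AT3G28050) had 2 inside the gene, of densities 1.32 and 1.22 and of 1.35 and 1.28, and a denser one 285 bp away over UMAMIT43-psi (1.67 and 1.41). At UMAMIT4 (AT3G18200; chromosome 3, 6234053 to 6235007, densities 1.66 and 1.27) the region also overlapped the neighbour AT3G18190. Near UMAMIT15 (AT5G13670; chromosome 5, 4405078 to 4406737, densities 1.90 and 1.37) and UMAMIT26 (AT1G11460; chromosome 1, 3859859 to 3861344, densities 1.5 and 1.23) it lay 340 and 394 bp outside the gene, over AT5G13660 and AT1G11470. The density percentiles of these 8 members ranged from 14.2 at UMAMIT17 to 74.3 at UMAMIT12.

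Of the 4 members near JKD regions alone, 3 were overlapped by them. These were UMAMIT9 (AT5G07050; chromosome 5, 2191893 to 2192759, densities 1.13 and 1.42), UMAMIT23 (AT1G68170; chromosome 1, 25553414 to 25553912, densities 1.02 and 1.37) and UMAMIT24 (chromosome 1, 8858915 to 8859329, densities 1.21 and 1.41). UMAMIT24 had a second region 856 bp away (8860765 to 8862578, densities 1.01 and 1.43, IDR 0.0625) over AT1G25275 and AT1G25277. Near UMAMIT46 (AT3G28070) the region lay 905 bp away, over UMAMIT43-psi (chromosome 3, 10446485 to 10446940, densities 1.07 and 1.42). In the densest region of each of these 4 members IDR was between 0.136 and 0.277, and percentiles ran from 15.3 at UMAMIT23 to 59.5 at UMAMIT24.

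The limit of 1000 bp decided a few of these cases. UMAMIT46 was the member just inside it for JKD at 905 bp, and UMAMIT41 the member just outside at 1054 bp, followed by UMAMIT15 at 1188 bp, UMAMIT12 at 1300 bp and UMAMIT4 at 1452 bp. For BLJ the farthest member inside was UMAMIT26 at 394 bp and the nearest outside UMAMIT46 at 1181 bp. With 2000 bp on either side, regions of both factors lay near 29 members (all genes 79.3%). BLJ regions alone then lay near 4 members (9.52%, all genes 7.3%) and JKD regions alone near 1 (2.38%, all genes 4.15%).

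The 10 members with no region were UMAMIT8, UMAMIT14, UMAMIT20, UMAMIT27, UMAMIT29, UMAMIT30, UMAMIT31, UMAMIT32, UMAMIT42 and UMAMIT47. UMAMIT32 (AT3G30340) lay farthest from any region, 14935 bp from the nearest BLJ and 14855 bp from the nearest JKD region. UMAMIT31 (AT4G01440) lay closest, at 1543 and 1560 bp. The BLJ and JKD distances were 2589 and 4490 bp at UMAMIT8, 6093 and 3589 bp at UMAMIT20, and 2570 and 3159 bp at UMAMIT27. They were 3512 and 3479 bp at UMAMIT30, 2560 and 2007 bp at UMAMIT42, and 3347 and 3003 bp at UMAMIT47. All of these genes thus lay more than 1500 bp from any region. The largest distance for a single factor was at UMAMIT22, which was overlapped by a BLJ region while the nearest JKD region lay 26924 bp away. These 10 genes were of ordinary length for the family (2201 to 3921 bp, median 2444 bp, against 2632 bp for members near both factors), but had more space around them. The gaps to both neighbouring genes summed to a median of 6002 bp, against 2179 bp for members near both factors. The same order was seen among all genes, at 3908 bp for those near no region and 1410 bp for those near both. Of the 66 nearest neighbours that are not members, 54 had a BLJ region nearby (81.8%) and 52 a JKD region (78.8%). Of the 23 neighbours of members without a BLJ region, 17 lay near one (73.9%), and of the 28 neighbours of members without a JKD region, 19 did (67.9%). Neighbours of members with a region had higher shares, 41 of 50 for BLJ (82.0%) and 37 of 43 for JKD (86.0%). The same region can lie near both a member and its neighbour, so part of this difference is built in. Some genes are neighbours of members with and without a region and count in both groups. Where members lie side by side, other members were passed over to reach the nearest gene that is not a member.

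Many members lie next to each other, and a smaller share of these had regions. With neighbouring members at most 10000 bp apart counted as an array, 17 members fell into 6 arrays. BLJ regions lay near 9 of these 17 (52.9%, 95% Wilson interval 31.0 to 73.8), and JKD regions near 6 (35.3%, 17.3 to 58.7). Of the 25 members outside arrays, 19 had a BLJ region nearby (76.0%, 56.6 to 88.5) and 18 a JKD region (72.0%, 52.4 to 85.7), so the intervals of both groups overlapped. Both values outside arrays lay close to the shares of all genes, 80.8% and 76.8%, and farther below those of genes of like length, 87.3% and 83.2%, which were weighted to all 42 members. Of the 10 members near no region, 7 were in arrays. The array of UMAMIT29, UMAMIT31 and UMAMIT30 on chromosome 4 spans 25.2 kb and had no member near a region, although BLJ regions covered 8.19% and JKD regions 5.04% of the span between its members. In the array of 5 on chromosome 3 (UMAMIT41, UMAMIT46, UMAMIT47, UMAMIT45 and UMAMIT44, 26.4 kb), BLJ regions covered 11.7% and JKD regions 8.0% of the span. UMAMIT13 and UMAMIT12, side by side on chromosome 2, were the best covered array, at 58.9% for BLJ and 19.7% for JKD. UMAMIT20 and UMAMIT17 on chromosome 4 had 3.24% and 0%, and between the outer ends of UMAMIT27 and UMAMIT26 on chromosome 1 no base was covered by either factor. In the array on chromosome 5, UMAMIT37 (AT5G40230) and UMAMIT40 (AT5G40240) shared a BLJ region (16081187 to 16081995, densities 1.70 and 1.52). They also shared a JKD region (16081136 to 16081897, densities 0.976 and 1.76, IDR 0.337), which overlapped UMAMIT37 and lay 91 bp from UMAMIT40, while UMAMIT42 (AT5G40210) had none. Reads that fit several near-identical copies can be lost or misplaced in alignment, and their part in the result was not tested. Counted once per array, 24 of 31 loci had a BLJ region nearby (77.4%, all genes 80.8%) and 21 a JKD region (67.7%, all genes 76.8%), where a locus of several genes had more sequence to meet a region than a single gene.

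Cover was lower than in genes of like length from the flanks through to the middle of the genes. In the first 250 bp outside the gene, BLJ regions covered 18.4% of bases at UMAMIT genes, on average over both sides, and 34.4% at genes of like length. JKD regions covered 12.0% and 31.7% there. Between 10% and 20% of the gene length from the nearest edge, where BLJ cover of genes of like length peaked at 46.9%, UMAMIT genes had 21.2%, and for JKD the values were 16.7% and 37.8%. Farther away, at 2750 to 3000 bp, BLJ cover was 31.8% beside 33.1%, and JKD cover 15.9% beside 28.3%. Inside UMAMIT genes BLJ cover lay between 20.6% and 26.4%, within the range outside them (18.4% to 32.1%). JKD cover inside them rose toward the middle, from 14.5% to 21.5%, where genes of like length had 35.9% and 34.3%.

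**Figure D4:**
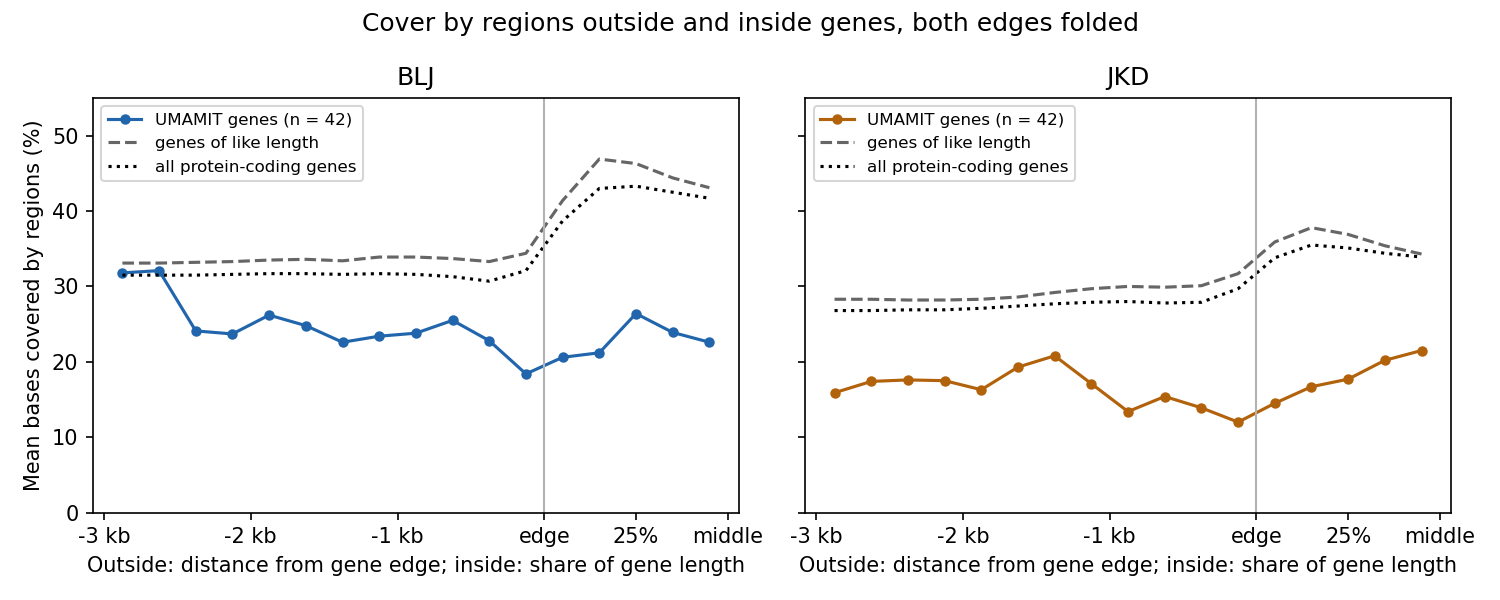
Mean share of bases covered by BLJ (left) or JKD (right) regions, in percent on the y axis, from 3000 bp outside genes to their middle, with both gene edges folded together because strand was not used. Coloured lines are the 42 UMAMIT genes, dashed lines genes of like length and dotted lines all protein-coding genes; at 250 bp or less from the gene the BLJ values were 18.4% for UMAMIT genes and 34.4% for genes of like length.

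The remaining members near both factors had densest regions with percentiles from 5.36 at UMAMIT7 to 70.0 at UMAMIT38, both for JKD. UMAMIT36 (AT1G70260), also known as RTP1 and linked to resistance against pathogens, had 2 BLJ and 3 JKD regions, with percentiles of 47.3 and 40.7 for the densest. At UMAMIT2 (AT4G19185) the JKD region with densities 1.08 and 1.54 reached over AT4G19190 as well. At UMAMIT7 (AT5G47470) a BLJ region with densities 1.49 and 1.34 overlapped the gene and its neighbour AT5G47480, and the JKD region had a percentile of 5.36, the lowest among the densest JKD regions of the members. UMAMIT21 (AT5G64700) had a JKD region with a percentile of 17.8 inside the gene, and a BLJ region there with 12.4. Its densest BLJ region, with 51.0, lay 261 bp outside the gene over AT5G64690. UMAMIT38 (AT4G15540) had a BLJ region with densities 1.85 and 1.27 (percentile 58.4) and a JKD region with 1.06 and 1.71 (percentile 70.0). These overlapped 227 and 189 bp of the gene and reached over AT4G15545.

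The 2 genes of the family that were found by synonym under other symbols both lay near regions of both factors. A gene of the family without such a synonym would be missed, and UMAMIT16 and UMAMIT39 are not among the genes described. WAT1 (UMAMIT5, AT1G75500), which transports auxin across the vacuolar membrane and is needed for secondary walls, had its densest BLJ region on chromosome 1 at 28339511 to 28340328 (densities 1.73 and 1.63, percentile 82.6) and its densest JKD region at 28339697 to 28340295 (densities 1.19 and 1.66, IDR 0.0562, percentile 82.4). SIAR1 (UMAMIT18, AT1G44800), a vascular transporter that exports amino acids to developing siliques, had a BLJ region (16912310 to 16913757, densities 1.38 and 1.55, percentile 41.5) and a JKD region 349 bp away (16912136 to 16913645, densities 1.12 and 1.56, percentile 63.2). With both included, 30 of 44 genes had a BLJ region nearby (68.2%) and 26 a JKD region (59.1%).

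Other amino acid transporters, from lists written down with earlier results known, gave higher shares, with intervals that overlapped those of the UMAMIT genes. Of 30 genes of the AAP, LHT, ProT, CAT and GDU families and BAT1, 26 had a BLJ region nearby and 26 a JKD region (86.7% each, 70.3 to 94.7), where genes of like length had 83.0% and 79.2%. The 8 AAP genes, permeases that take up amino acids with protons, had 7 and 8 members near a region (like length 88.8% and 85.0%). AAP2 had a BLJ percentile of 95.1 and AAP3 a JKD percentile of 92.6. All 9 CAT genes, which carry cationic amino acids, lay near both (like length 89.4% and 85.6%), led by CAT6 at 95.5 and 92.2. All 3 proline transporters lay near both (like length 88.3% and 84.5%). The amino acid importers LHT1 and LHT2 lay near BLJ regions alone (like length 88.9% for BLJ and 85.0% for JKD). Of the 7 glutamine dumper genes, which raise amino acid export, 4 lay near a BLJ region (57.1%, like length 63.6%). For JKD they were 5 (71.4%, like length 59.6%). SWEET genes, a family of sugar exporters named here for comparison, had shares like those of UMAMIT genes. BLJ regions lay near 9 of 15 (60.0%, 35.7 to 80.2, like length 84.3%) and JKD regions near 8 of 15 (53.3%, 30.1 to 75.2, like length 79.8%). These 15 were matched by the symbol SWEET and a number, so genes of that family under other symbols were left out.

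**Figure D5:**
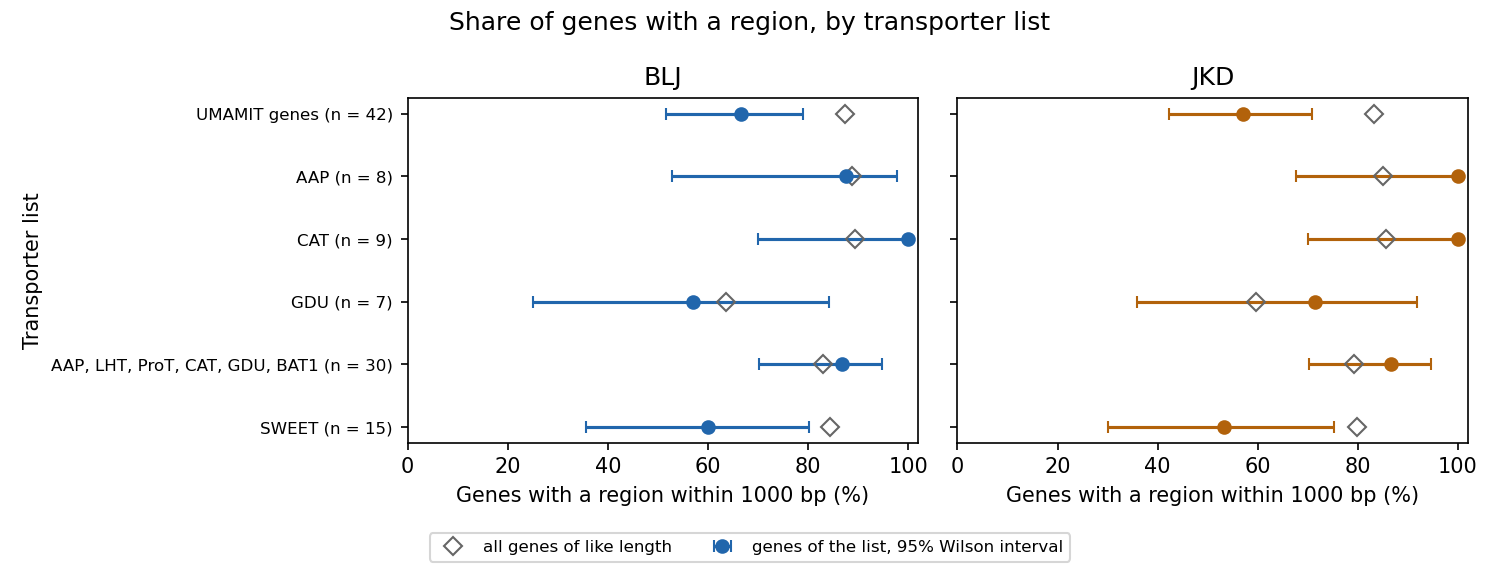
Share of genes within 1000 bp of a BLJ (left) or JKD (right) region, in percent on the x axis, for UMAMIT genes and other transporter lists. Points are shares with 95% Wilson intervals and diamonds all genes of like length; UMAMIT (66.7% and 57.1%) and SWEET genes (60.0% and 53.3%) lie left of their diamonds, the 30 other amino acid transporters (86.7% each) do not.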

How the data were processed

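DNA pulled down from roots was amplified linearly, cut and tagged with a transposase, and read from 1 end over 50 bp, per the labels' protocols. The submitters' processing notes name CASAVA, Bowtie and build TAIR9. The sources used here do not say how peaks were called, what density was normalized to or whether the control entered. The deposited density signal holds 2 values per region. The deposited IDR, per the file headers, was read like a q-value and used only to restrict regions within a list.

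Genes came from an NCBI table of TAIR10.1, whose nuclear chromosomes are the same assembly as in TAIR9, without strand or sequence. The planned motif count was not run. Coordinates in the text come from the deposited region lists. Overlaps, cover and shares weighted over 10 bins of gene length were computed with Python 3.11.15, pandas 2.3.3, numpy 2.4.6 and scipy 1.17.1, after a check on simulated data. Figures used matplotlib 3.10.9. Region lists hold no values per replicate other than density, so no test over samples was run. Read depth is unknown.

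The members and gene lists were chosen with earlier results of these data known. Full values were given for members with an IDR at or below 0.05, the 5 of highest density per list, members near 1 factor only and members with known transport roles, and every member was named.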

Additional observations from a re-analysis of the deposited data

How the results depend on the processing

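No paired analysis was possible because the authors deposited 1 region list per factor, and leaving out a replicate was not run for the same reason. Counts of UMAMIT genes near BLJ, JKD, both or neither stayed within 1.5 times the main count with the gene body alone and with region midpoints. The same held with 500 or 2000 bp on either side. Counts near 1 factor alone fell further with 2000 bp, from 8 to 4 for BLJ and from 4 to 1 for JKD (all genes 7.3% and 4.15%). With fewer regions the counts near BLJ, JKD, both or neither moved further as well. With an IDR at or below 0.1 the counts were 5 for BLJ, 9 for JKD, 4 for both and 32 for neither (all genes 32.1%, 40.8%, 17.5% and 44.5%). With an IDR at or below 0.05 they were 1, 6, 1 and 36 in the same order (all genes 11.2%, 22.2%, 3.78% and 70.4%). With the denser 50% of each list they were 16, 15, 10 and 21 (all genes 57.7%, 53.3%, 42.2% and 31.3%). Under each of these settings the members' share near BLJ, JKD or both stayed below that of genes of like length. Without weighting by length the shares of all genes were 80.8% for BLJ and 76.8% for JKD, and weighted by length and by the gap to neighbouring genes together 84.9% and 80.9%, the latter added after seeing the data. Median cover of the gene plus 1000 bp was 0 for both factors at an IDR at or below 0.1, as for all genes. Without members in arrays, also added after seeing the data, the share near a JKD region was 72.0%. The median density percentile stayed below that of all genes with either density value alone. With 42 genes, intervals of shares are wide, and since regions were listed once per factor, shares have no spread between replicates.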
